A study of Mus musculus with 16 samples.

Results

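The genes described here encode collagens and other proteins of the extracellular matrix in mouse liver. They were chosen by symbol from a list of 40 genes that covers fibrillar, basement membrane and beaded filament collagens, small proteoglycans, elastic fibre and crosslinking proteins, matrix glycoproteins, and matrix proteases with their inhibitors. Of the 40 genes, 38 had at least 1 probe set assigned to them alone, 73 probe sets in all, out of 12393 genes and 22626 probe sets on the array. Fbn1 had no probe set in the annotation used, and the only probe set of Loxl2 was shared with another symbol and was left out. There were 13 genes with 1 probe set and 25 with 2 or more. Each gene is represented by the probe set with the smallest spread within groups, and other probe sets are named where they read differently.

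Liver RNA of male FvB/n mice was hybridised to 16 Affymetrix arrays in 2 experiments of 8 arrays each, which were analysed separately. In the first, all mice carried the TTR::Fv2E-PERK transgene at high expression, and 4 arrays came from untreated livers (mock injection, per the design text) and 4 from livers of mice given AP20187. TTR is the transthyretin promoter, active in hepatocytes, and Fv2E-PERK is a chimera of the eIF2α kinase PERK that is switched on when the drug AP20187 brings its molecules together. In the second, the mice were wildtype or Alb::GC, and each genotype was fed either low fat (LFD) or high fat (HFD) chow, with 2 arrays in each of the 4 groups. In Alb::GC mice the albumin promoter drives, in hepatocytes, an active fragment of the eIF2α phosphatase subunit GADD34. The question of the study was which genes of the integrated stress response, the programme set off by phosphorylated eIF2α, change in liver. The sources used here give no ages, doses, times or length of feeding.

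Collagens are chains wound into triple helices, secreted, trimmed and then assembled into fibrils, networks or filaments. In the liver most fibrillar collagen is made by stellate cells and portal fibroblasts, while sinusoidal endothelium and hepatocytes contribute basement membrane proteins and plasma fibronectin. Turnover is set by metalloproteinases and by their tissue inhibitors, and an excess of matrix is the hallmark of liver fibrosis. Because RNA of the whole liver was measured, fewer cells of a type and less RNA per cell cannot be told apart.

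All values are ratios as the authors deposited them, with array medians between 0.94 and 1.02 and a lowest value of 0.01. What the ratio was taken against is not given in the sources used here, so a value shows how a gene differed between arrays and not how abundant it was next to another gene. Differences are on the log2(ratio + 0.05) scale with their standard error, tested with limma over all probe sets with Benjamini-Hochberg adjustment, two-sided at 0.05. Nothing in the labels ties an array to a mouse of its own, so the p-values cover only the spread between these samples, and that may be technical. Log2 values of replicate arrays correlated across probe sets at 0.442 to 0.658. The number of arrays, 2 or 4 in a group, limits the precision.

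Stretches of genome sequence are shown for the collagen genes on which the AP20187 results turn. On representative probe sets Col3a1 had the largest fall of all members and Col1a2 the smallest fall that passed, so the 250 bases before each start are given. This order depends on the probe set. Other probe sets of Col1a1 and Col1a2 passed at -2.30 and -2.15, beyond the -2.02 of Col3a1, and another of Mmp14 passed at -0.32. Col4a1 and Col4a2 moved in opposite directions, and they are transcribed from opposite strands and overlap by the 22 bases from start to start, so that segment is given with those bases in capitals. In the other stretches capitals mark CCAAT on either strand. All are from the RefSeq promoter table, build GRCm38.p6, plus strand, 5′ to 3′, and the choice of stretches was made after the values and sequences had been seen.
Col1a2, chr6:4505368-4505617: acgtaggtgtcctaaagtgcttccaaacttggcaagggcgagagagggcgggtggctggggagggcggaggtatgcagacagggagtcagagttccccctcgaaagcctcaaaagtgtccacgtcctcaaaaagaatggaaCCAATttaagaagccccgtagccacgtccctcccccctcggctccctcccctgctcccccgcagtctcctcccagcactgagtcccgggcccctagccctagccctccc
Col3a1, chr1:45311288-45311537: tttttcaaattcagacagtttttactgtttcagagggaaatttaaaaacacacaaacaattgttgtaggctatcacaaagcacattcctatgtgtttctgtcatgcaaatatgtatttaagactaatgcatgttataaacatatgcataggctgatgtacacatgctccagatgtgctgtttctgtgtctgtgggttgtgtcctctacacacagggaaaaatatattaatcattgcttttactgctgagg
Col4a1 and Col4a2, chr8:11312797-11312826: ccctcggcAGTGCGCGGGCGGCGTCTCCAA

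The RefSeq table held a window of 300 bases, 250 before the start and 50 from it, for 23 of the 38 members. In these windows 8 short motifs were searched on both strands. CCAAT, the core of the CCAAT box, lay in 12 of the 23 members' windows and in 37.4% of all 32851 windows. The motif GGGCGG, bound by Sp1, lay in 16 members' windows and 35.7% of all. The Smad binding motif CAGAC lay in 13 and in 49.6% of all. The core promoter motif TATAAA lay in the windows of 2 members, Col3a1 and Postn, and in 13.6% of all. TGACGT, found within cyclic AMP response elements, was in the window of Timp1 only (7.51% of all), and TGACTCA, an AP-1 element, in that of Col6a1 only (5.2% of all). TGATGNAAT, a composite C/EBP and ATF element, was in that of Fbln5 only (0.965% of all). The endoplasmic reticulum stress element, CCAAT and CCACG with 9 bases between them, was in none (0.119% of all). It contains CCAAT, and a match describes these letters only.

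With AP20187, matrix genes were mostly lower than in untreated TTR::Fv2E-PERK liver. Of the 38 genes, 14 fell, 2 rose and 22 did not pass the test, while 22.4% of all genes fell and 14.9% rose. The members' median difference was -0.42, against -0.15 over all genes. Of the members' differences 30 of 38 were below 0, against 7412 of 12393 over all genes. The fallen genes came from nearly every role: 4 of 6 fibrillar collagens, the fibril-associated collagen Col14a1, 3 of 8 basement membrane genes, 1 of 4 proteoglycans, 1 of 4 elastic fibre and crosslinking genes, 3 of 7 glycoproteins and 1 of 5 proteases and inhibitors. The beaded filament collagens Col6a1, Col6a2 and Col6a3 were all lower, at -0.41, -0.35 and -0.47, without passing. The second Col6a2 probe set differed by 0.44 and did not pass either. Of the 25 genes with 2 or more probe sets none had calls in both directions, against 0.525% of all such genes.

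**Figure D1:**
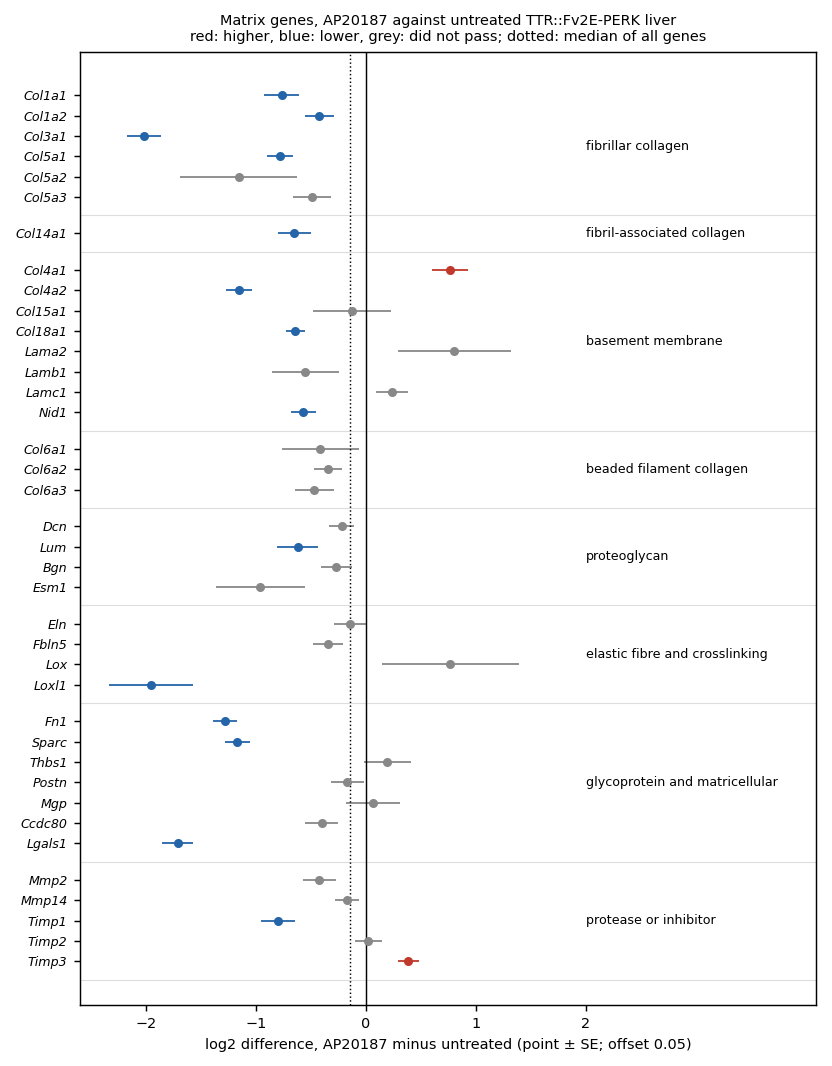
Log2 difference between AP20187-treated and untreated TTR::Fv2E-PERK liver (x axis, with its standard error) for 38 matrix genes grouped by role (y axis), 4 arrays a group. The differences run from -2.02 for Col3a1 to 0.81 for Lama2, and 14 genes passed the test below 0 and 2 above it.

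The fibrillar collagens form the load-bearing fibrils of the interstitium. Col3a1, which encodes the single chain of type III collagen, read 4.64, 3.46, 3.90 and 4.66 in untreated livers and 0.91, 1.05, 0.98 and 1.0 after AP20187. Every untreated array lay above every treated one, and the difference was -2.02 ± 0.16 (adjusted p = 0.000106). Its second probe set fell by 0.89 (adjusted p = 0.017). Col1a1, the major chain of type I collagen, read 1.49, 1.42, 1.45 and 2.24 against 0.80, 0.92, 1.02 and 1.01, a difference of -0.76 ± 0.16 (adjusted p = 0.00715). The fourth untreated array stood above the other untreated arrays, and the groups did not overlap. On the second Col1a1 probe set the difference was -2.30 ± 0.42.

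Col1a2, the other chain of type I collagen, read 1.2, 1.29, 1.01 and 1.37 in untreated livers and 0.76, 0.82, 1.0 and 1.0 after AP20187. The lowest untreated array nearly met the highest treated arrays, and the difference was -0.42 ± 0.13 (adjusted p = 0.0394). This call was lost without untreated replicate 1, 2 or 4 or AP20187 replicate 1 or 2 (adjusted p = 0.0776, 0.0891, 0.0982, 0.0948 and 0.1), and with quantile normalisation, median centring or no mean-variance trend (adjusted p = 0.112, 0.061 and 0.051). The second Col1a2 probe set read 2.15, 3.0, 2.03 and 3.57 against 0.85, 0.26, 0.27 and 1.42, a difference of -2.15 ± 0.51. Both probe sets of each of Col1a1, Col1a2 and Col3a1 thus passed in the same direction, while the sizes differed.

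Type V collagen nucleates and limits the width of fibrils. Col5a1 read 1.72, 1.62, 1.61 and 1.78 in untreated livers and 0.76, 1.06, 1.11 and 0.94 after AP20187, a difference of -0.78 ± 0.12 (adjusted p = 0.00175). Its other probe sets differed by -1.11 and -0.38 and did not pass in limma (adjusted p = 0.0881 and 0.093). Col5a2, the next gene to Col3a1 on the chromosome, read 1.55, 1.39, 1.34 and 1.48 against 0.14, 0.97, 1.04 and 0.89. Its groups did not overlap, but the value of 0.14 widened the spread and the difference of -1.16 ± 0.53 did not pass (adjusted p = 0.135). For Col5a3 the difference was -0.49 ± 0.17 (adjusted p = 0.0605). Col14a1, a collagen that decorates the surface of fibrils, read 1.77, 1.37, 1.59 and 2.02 against 0.91, 1.0, 1.0 and 1.31, a difference of -0.65 ± 0.15 (adjusted p = 0.011) that missed the threshold with quantile normalisation (adjusted p = 0.0522). The second Col14a1 probe set differed by -0.32, with overlapping arrays, and did not pass in limma (adjusted p = 0.129).

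**Figure D2:**
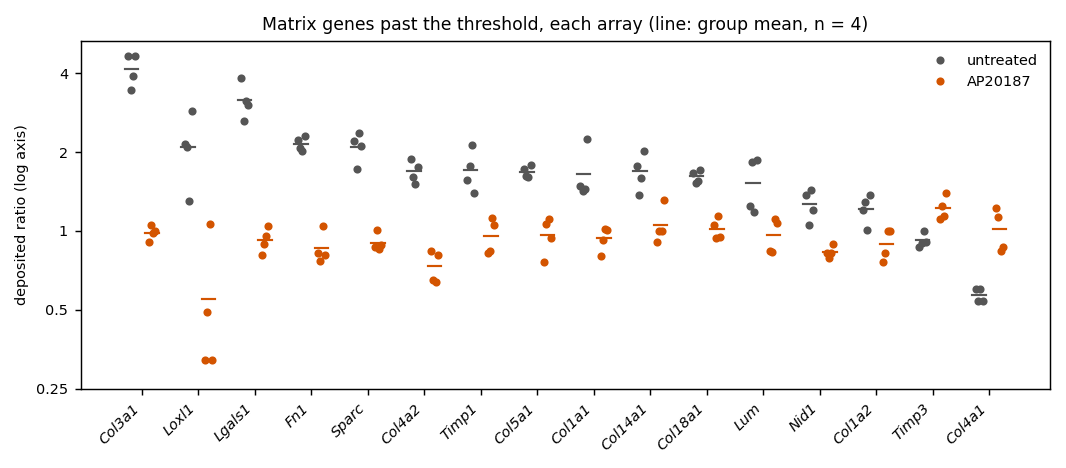
Deposited ratio (y axis, log scale) on each of the 4 untreated and 4 AP20187 arrays (points) with the group mean (line) for matrix genes that passed the test. The groups separate for Col3a1, with untreated arrays between 3.46 and 4.66 and treated arrays between 0.91 and 1.05, and Col4a1 lies the other way round, at 0.54 to 0.60 against 0.84 to 1.22.

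Among basement membrane genes the paired chains of type IV collagen went opposite ways. Type IV collagen is the network-forming collagen of basement membranes, and its usual molecule holds a pair of Col4a1 chains and a single Col4a2 chain. Col4a1 read 0.60, 0.54, 0.60 and 0.54 in untreated livers and 1.22, 1.13, 0.84 and 0.87 after AP20187. All treated arrays were higher, and it rose by 0.77 ± 0.17 (adjusted p = 0.00871). Its second probe set rose by 0.69 ± 0.17 (adjusted p = 0.014). Col4a2 read 1.89, 1.61, 1.51 and 1.75 against 0.84, 0.65, 0.64 and 0.81, and it fell by 1.15 ± 0.12 (adjusted p = 0.000304). Col4a2 has 1 probe set on the array, so no second probe set speaks to its direction. In GRCm38.p6 the Col4a1 start lies at 11312826 on the minus strand and the Col4a2 start at 11312805 on the plus strand of chromosome 8, the stretch printed above.

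The other basement membrane genes fell or did not pass. Col18a1, whose tail yields endostatin, read 1.67, 1.53, 1.55 and 1.71 against 1.05, 0.94, 1.14 and 0.95, a difference of -0.64 ± 0.09 (adjusted p = 0.00101), and its second probe set fell by 0.71. Nid1, the nidogen that links laminin to type IV collagen, read 1.37, 1.05, 1.43 and 1.2 against 0.82, 0.79, 0.82 and 0.89, a difference of -0.57 ± 0.11 (adjusted p = 0.00571). The second Nid1 probe set differed by -1.23 ± 0.47, with overlapping arrays, and did not pass in limma (adjusted p = 0.0806). The laminin chains did not pass. Lama2 differed by 0.81 ± 0.51, Lamb1 by -0.55 ± 0.31 and Lamc1 by 0.23 ± 0.15, with overlapping arrays for each. Col15a1 differed by -0.12 ± 0.35.

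On representative probe sets the crosslinking enzyme gene Loxl1 had the next largest fall after Col3a1. It read 2.15, 2.09, 1.30 and 2.86 in untreated livers and 0.32, 0.49, 1.06 and 0.32 after AP20187, without overlap, a difference of -1.95 ± 0.38 (adjusted p = 0.00551). Lox, which oxidises collagen lysines, had untreated values from 0.14 to 1.41 and differed by 0.77 ± 0.62. Eln, elastin, differed by -0.14 ± 0.15, and its second probe set by -0.63 ± 0.16, which passed (adjusted p = 0.017). Fbln5, an organiser of elastic fibres, differed by -0.35 ± 0.13 (adjusted p = 0.0836).

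The small leucine-rich proteoglycans bind collagen fibrils and set their spacing. Lum read 1.24, 1.83, 1.18 and 1.86 against 0.84, 0.83, 1.11 and 1.07, a difference of -0.62 ± 0.18 (adjusted p = 0.0317). The call was lost without untreated replicate 2 or 4 or AP20187 replicate 1 or 2 (adjusted p = 0.0749, 0.0776, 0.0812 and 0.0847) and with quantile normalisation (adjusted p = 0.0876). Dcn, its neighbour on the chromosome, differed by -0.22 ± 0.12, and Bgn by -0.27 ± 0.15. Esm1, the endothelial proteoglycan endocan, ran low on all 8 arrays, at 0.25, 0.25, 0.17 and 0.07 against 0.07, 0.06, 0.13 and 0.02. Its groups shared values and the difference of -0.96 ± 0.40 did not pass.

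Of the glycoproteins, Lgals1, Fn1 and Sparc fell. Lgals1, a galactoside-binding lectin of mesenchymal cells, read 3.85, 2.63, 3.13 and 3.03 in untreated livers and 0.81, 0.89, 0.96 and 1.04 after AP20187, a difference of -1.71 ± 0.14 (adjusted p = 0.000128). Sparc, a collagen-binding matricellular protein, read 2.21, 1.72, 2.36 and 2.11 against 0.87, 1.01, 0.85 and 0.88, a difference of -1.17 ± 0.11 (adjusted p = 0.000234). The second probe sets of Lgals1 and Sparc fell by 1.59 and 1.07. Fn1, fibronectin, which hepatocytes also secrete into plasma, read 2.22, 2.07, 2.02 and 2.30 against 0.82, 0.77, 1.04 and 0.81, a difference of -1.28 ± 0.11 (adjusted p = 0.000131). The second Fn1 probe set differed by 0.37 ± 0.47, with untreated values from 0.41 to 2.14, and did not pass. Ccdc80, Postn, Thbs1 and Mgp differed by -0.40, -0.17, 0.19 and 0.07 and did not pass.

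The tissue inhibitors of metalloproteinases split. Timp1 read 1.56, 1.77, 2.12 and 1.40 in untreated livers and 0.82, 0.84, 1.12 and 1.05 after AP20187, a difference of -0.80 ± 0.15 (adjusted p = 0.00499). Timp3, the inhibitor that stays bound to matrix, read 0.87, 0.90, 1.0 and 0.91 against 1.11, 1.24, 1.14 and 1.40, and it rose by 0.39 ± 0.10 (adjusted p = 0.0166). All 4 Timp3 probe sets lay above 0, from 0.34 to 0.96, and 1 of them passed. Without AP20187 replicate 2 the Timp3 call was lost (adjusted p = 0.0517), which left Col4a1 as the 1 member that rose. Timp2 differed by 0.02 ± 0.12, and its 6 probe sets ran from -0.13 to 0.95 with none passing. The gelatinase Mmp2 differed by -0.42 ± 0.15 (adjusted p = 0.0616) and the membrane protease Mmp14 by -0.17 ± 0.11, while the other Mmp14 probe set fell by 0.32 (adjusted p = 0.048).

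Other members passed in the diet experiment but not here. Col5a3 read 1.56, 1.26, 1.4 and 1.58 in untreated livers and 1.34, 1.17, 0.81 and 0.83 after AP20187. Mmp2 read 1.16, 1.05, 1.31 and 1.35 against 0.89, 1.13, 0.89 and 0.7. Both were lower in most treated livers, with overlapping arrays. Dcn read 1.31, 1.13, 1.17 and 1.17 against 0.97, 1.0, 1.25 and 0.88, Postn 1.0, 1.16, 1.1 and 1.12 against 1.09, 0.96, 0.72 and 1.16, and Eln 0.78, 0.94, 0.93 and 0.77 against 0.69, 0.74, 0.73 and 0.92. Lama2 read 0.44, 0.53, 1.54 and 0.73 against 1.9, 1.27, 0.51 and 2.23, so that its arrays spread widely in both groups.

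Genes for collagen processing and secretion followed a similar count, with 7 of 19 lower, 1 higher and 11 not passing. Ppib, a prolyl isomerase of the endoplasmic reticulum, Serpinh1, the collagen chaperone HSP47, and Pcolce, an enhancer of procollagen cleavage, differed by -1.31, -1.31 and -1.22. Sec23a, a coat protein of secretory vesicles, rose by 0.67. Of 20 genes of the TGF-beta pathway, the main inducer of collagen genes in stellate cells, 6 were higher and 3 lower. The pathway inhibitors Skil and Smad7 rose by 2.01 and 1.85 and the receptor gene Tgfbr1 by 0.80, while the ligand gene Tgfb1 fell by 0.54, Ltbp2 by 0.39 and Eng by 0.36. Of 19 matrix receptors 6 fell and none rose, led by Itga8 at -1.51, Dag1 at -1.10 and Itga3 at -0.58. Among 56 other matrix genes 9 fell and 3 rose, with Mmp19 at -1.65, Mmp12 at -1.38 and Col4a5 at -0.76, and with Mmp11 at 2.64, Lamb3 at 1.16 and Col13a1 at 0.56. Of all genes 22.4% fell and 14.9% rose, and both counts among the 56 lay below these shares. The median difference was -0.36 for processing, 0.18 for TGF-beta, -0.47 for receptor and -0.17 for other matrix genes, against -0.15 over all genes.

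Markers of several liver cell types were lower on the same arrays, where 22.4% of all genes fell and 14.9% rose. Of 15 stellate cell and fibroblast markers 7 fell and none rose, with Tagln, Ngfr and Tcf21 at -1.89, -1.45 and -1.08. Their mean ratio was 1.31 to 1.68 on untreated arrays and 0.897 to 0.958 on AP20187 arrays. Of 10 hepatocyte markers 7 fell and 1 rose, with mean ratios of 1.26 to 1.43 against 0.904 to 1.05, and of 11 macrophage markers 7 fell and none rose. Endothelial markers fell for 6 of 16, smooth muscle and mesothelial markers for 1 of 7, and adipocyte markers for none of 3, while 1 of 9 cholangiocyte markers rose and none fell. The part of these markers in the matrix results was not tested, and as ratios they do not show how abundant each cell type was. Scaling the arrays moved the median of all probe sets from -0.13 as deposited to -0.06 with quantile normalisation and -0.08 with median centring, and the members' median from -0.42 to -0.31 and -0.37.

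**Figure D3:**
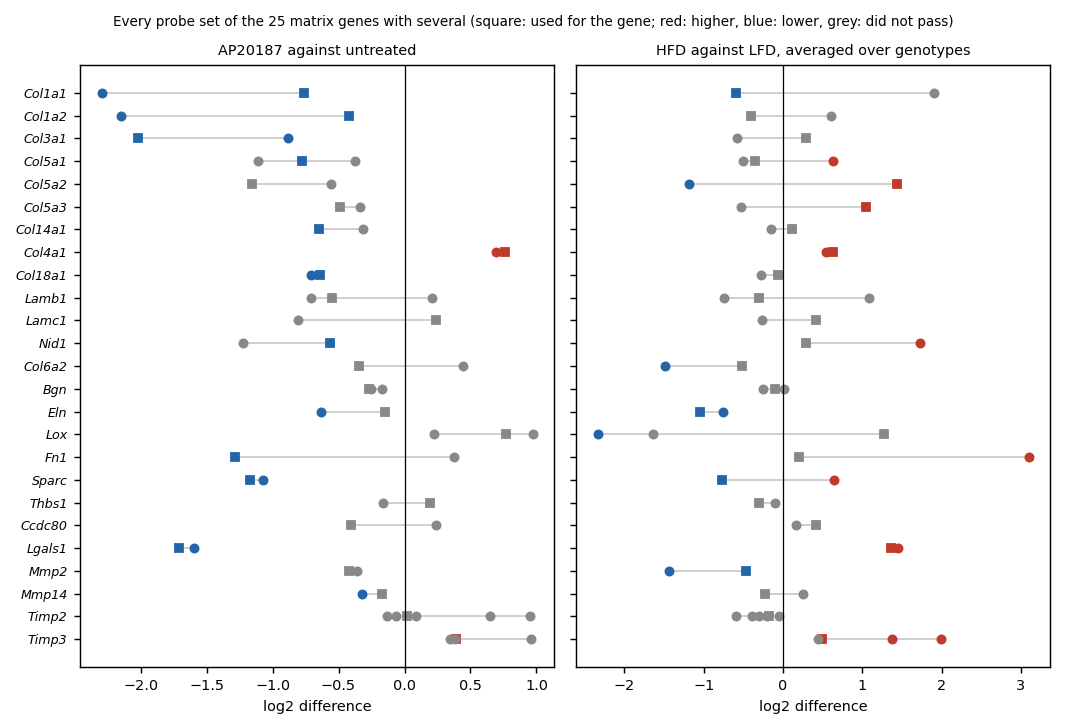
Log2 differences (x axis) of every probe set of the 25 matrix genes that have 2 or more (y axis), for AP20187 against untreated liver and for HFD against LFD averaged over genotypes. After AP20187 no gene had probe sets called in both directions, and in the diet experiment Sparc and Col5a2 did.

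In the diet experiment each comparison rests on 2 arrays against 2 or, averaged over genotypes, 4 against 4, and the comparisons share arrays. The log2 difference of 3′ minus 5′ control probe sets compares the 2 ends of a transcript. Taken from ratios, it shows only how arrays differed. For actin it was -0.16 to 0.21 on LFD arrays and -0.71 to -0.33 on HFD arrays, and for Gapdh 0.04 to 0.22 and -0.31 to -0.15. The 2 diets thus did not overlap on either control, and the part of this 3′ minus 5′ difference in the diet results was not tested. In the AP20187 experiment the groups lay closer, at -0.18 to -0.02 and -0.04 to 0.15 for actin.

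In wildtype mice 8 matrix genes were higher on HFD, 2 were lower and 28 did not pass, while 6.03% of all genes were higher and 7.97% lower. The members' median difference was 0.22 against -0.19 over all genes. The genes that rose were the collagens Col5a3, Col4a1 and Col3a1, the proteoglycans Esm1 and Dcn, the glycoproteins Lgals1 and Postn, and the inhibitor Timp3. The genes that fell were Eln and Sparc. Leaving out either HFD wildtype array left no member past the threshold above 0, leaving out either LFD wildtype array left 3, and leaving out either HFD Alb::GC array left 5. With quantile normalisation the calls of Postn, Dcn and Sparc were lost (adjusted p = 0.0689, 0.0515 and 0.0657), and with median centring that of Sparc (adjusted p = 0.0516). Below 0, no member passed without any 1 of the 4 wildtype arrays and 1 passed without any 1 of the Alb::GC arrays.

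Esm1 and Lgals1 stood apart. Esm1 read 0.15 and 0.15 on LFD and 2.81 and 2.44 on HFD in wildtype mice, a difference of 3.74 ± 0.41 (adjusted p = 0.00722). In Alb::GC mice it read 0.14 and 0.17 on LFD and 0.11 and 0.14 on HFD, so that the HFD wildtype arrays were the only ones above 0.17. Lgals1 read 1.02 and 0.84 on LFD and 9.55 and 9.23 on HFD in wildtype mice, a difference of 3.27 ± 0.32 (adjusted p = 0.00601). In Alb::GC mice it read 1.08 and 1.01 on LFD and 1.0 and 0.48 on HFD. Its second probe set showed 8.42 and 9.32 on HFD wildtype arrays and 0.57 to 1.46 on the others. Without HFD wildtype replicate 1 the wildtype diet calls of both genes had an adjusted p of 0.0501, and without replicate 2 of 0.0504.

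The 6 other genes that rose in wildtype mice changed less. Col4a1 read 0.78 and 0.60 on LFD and 1.55 and 1.76 on HFD, a difference of 1.21 (adjusted p = 0.018), and Alb::GC arrays read 1.10 and 0.88 on LFD and 1.12 and 0.93 on HFD. Col3a1 read 0.72 and 0.82 on LFD and 1.33 and 1.54 on HFD in wildtype mice, a difference of 0.86 (adjusted p = 0.0224), and 1.31 and 1.15 against 0.94 and 1.06 in Alb::GC mice. Dcn, decorin, read 0.53 and 0.68 against 1.06 and 1.25 in wildtype mice, a difference of 0.88 (adjusted p = 0.0415), and 1.02 and 0.85 against 0.98 and 0.98 in Alb::GC mice. On these probe sets the 3 genes rose with diet in wildtype mice and overlapped or lay lower in Alb::GC mice. The second Col4a1 probe set differed by 0.40 in wildtype and 0.69 in Alb::GC mice, with HFD arrays above LFD arrays in both. The second Col3a1 probe set differed by -0.57 and -0.58, with HFD arrays below LFD arrays in both. Neither second probe set passed in either genotype. Col5a3 read 0.60 and 0.77 against 1.73 and 1.99 in wildtype mice, a difference of 1.38 (adjusted p = 0.0215), and 1.21 and 0.76 against 1.75 and 1.47 in Alb::GC mice. Postn, periostin, read 0.79 and 1.2 against 2.01 and 2.59, a difference of 1.19 (adjusted p = 0.0364), and 0.72 and 0.96 against 1.65 and 1.27. Timp3 read 0.79 and 0.81 against 1.39 and 1.29, a difference of 0.71 (adjusted p = 0.0295), and 1.07 and 0.92 against 1.30 and 1.14. On these probe sets of Col5a3, Postn and Timp3, HFD arrays were above LFD arrays in both genotypes. The second Col5a3 probe set differed by -1.09 in wildtype mice, with HFD arrays below LFD arrays. In Alb::GC mice it differed by 0.05, with overlapping arrays, and it passed in neither genotype.

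**Figure D4:**
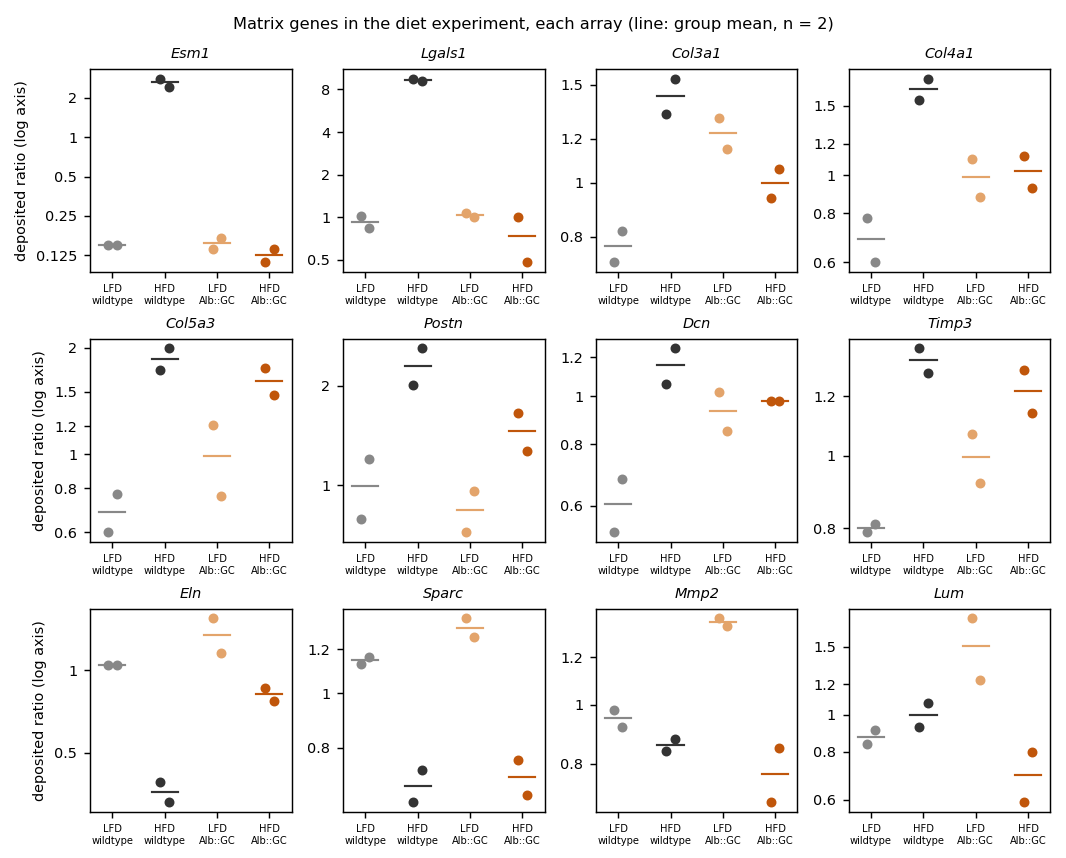
Deposited ratio (y axis, log scale) on each array (points, 2 a group, line at the group mean) for 12 matrix genes in the diet experiment. Esm1 and Lgals1 are high only on the HFD wildtype arrays, at 2.44 to 2.81 and 9.23 to 9.55, while Eln and Sparc are lower on HFD arrays of both genotypes.

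Eln and Sparc were lower on HFD. Eln read 1.04 and 1.04 on LFD and 0.39 and 0.33 on HFD in wildtype mice, a difference of -1.41 (adjusted p = 0.0185), and 1.54 and 1.15 against 0.86 and 0.77 in Alb::GC mice. Sparc read 1.13 and 1.16 against 0.64 and 0.73 in wildtype mice, a difference of -0.70 (adjusted p = 0.0441), and 1.36 and 1.26 against 0.76 and 0.66 in Alb::GC mice, a difference of -0.84 (adjusted p = 0.0424). The other Sparc probe set ran the opposite way in wildtype mice, at 0.99 and 0.92 against 2.38 and 2.09, a rise of 1.18 (adjusted p = 0.00708). Sparc was the 1 member of 25 with probe sets called in both directions there, against 0.868% of all genes with 2 or more. Its direction with diet is therefore not settled by these arrays.

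In Alb::GC mice no matrix gene was called higher on HFD on its representative probe set, and 3 were called lower, Sparc, Mmp2 and Col5a1. Of all genes 3.77% were higher and 2.46% lower. Another Timp3 probe set was called higher in Alb::GC mice, at 1.39 (adjusted p = 0.0316), and in wildtype mice, at 2.60 (adjusted p = 0.00599). The members' median difference was -0.24, against -0.08 over all genes. Mmp2 read 1.39 and 1.35 on LFD and 0.69 and 0.85 on HFD, a difference of -0.80 (adjusted p = 0.0431), and 0.98 and 0.92 against 0.84 and 0.88 in wildtype mice. Col5a1 read 1.24 and 1.29 against 0.69 and 0.81, a difference of -0.72 (adjusted p = 0.0468), and 0.95 and 1.07 against 1.03 and 1.02 in wildtype mice. A second Col5a1 probe set rose by 1.13 in Alb::GC mice (adjusted p = 0.0271), and genes with calls both ways made up 0.141% of those with 2 or more probe sets. Leaving out any 1 of the 8 diet arrays took all 3 below the threshold, and without LFD Alb::GC replicate 2 a different member was called lower.

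Averaged over genotypes, 7 matrix genes were higher on HFD and 5 lower, while 10.8% of all genes were higher and 16.8% lower. The higher genes were Esm1, Col5a2, Lgals1, Col5a3, Postn, Col4a1 and Timp3, with differences from 0.50 for Timp3 to 1.75 for Esm1. The lower genes were Lama2 at -1.88, Eln at -1.05, Sparc at -0.77, Col1a1 at -0.59 and Mmp2 at -0.47. Without HFD wildtype replicate 1 or 2 or HFD Alb::GC replicate 1 the count above 0 was 4, 3 and 4, and without any 1 of the 8 arrays 2 or 3 genes passed below 0. For Esm1, Lgals1 and Col4a1 this average joined a large wildtype difference with Alb::GC differences of -0.23, -0.55 and 0.05. Col5a2 read 0.53, 0.19, 1.02 and 0.42 on LFD arrays and 1.09, 1.38, 1.09 and 1.99 on HFD arrays, but its second probe set fell by 1.19 (adjusted p = 0.0356). Probe sets called both ways were found for Sparc and Col5a2, 2 of 25 genes, against 3.49% of all genes with 2 or more. Lama2, the laminin alpha 2 chain, read 0.90, 2.03, 1.25 and 1.62 on LFD arrays and 0.21, 1.10, 0.22 and 0.24 on HFD arrays. Col1a1 read 1.24, 1.52, 1.11 and 1.26 on LFD arrays and 0.81, 1.01, 0.91 and 0.64 on HFD arrays, while its second probe set differed by 1.90.

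The remaining members that had fallen with AP20187 did not pass with diet on their representative probe sets. In wildtype liver Timp1 read 1.25 and 0.86 on LFD, then 1.05 and 1.29 on HFD, and in Alb::GC liver 0.95 and 1.15, then 0.61 and 0.56. Lum read 0.84 and 0.91, then 0.93 and 1.07, in wildtype liver and 1.78 and 1.23, then 0.59 and 0.8, in Alb::GC liver. In Alb::GC mice both were lower on HFD without overlap, and the differences of -0.79 and -1.05 did not pass. Loxl1 read 0.61 and 0.31, then 1.04 and 0.91, in wildtype liver and 2.30 and 1.53, then 0.96 and 1.53, in Alb::GC liver. Nid1 read 0.6 and 0.8, then 0.95 and 1.3, in wildtype liver and 1.08 and 1.04, then 1.02 and 0.99, in Alb::GC liver. For Loxl1 and Nid1 the lowest values were those of the LFD wildtype arrays.

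Col4a2 read 1.03 and 0.43 on LFD, then 1.14 and 1.17 on HFD, in wildtype liver and 0.8 and 0.98, then 1.05 and 0.81, in Alb::GC liver. Col1a2 read 0.98 and 1.13, then 0.78 and 0.74, in wildtype liver and 1.49 and 1.11, then 1.06 and 0.93, in Alb::GC liver. On this probe set both Col1a2 pairs were lower on HFD without passing. The second Col1a2 probe set differed by 1.63 in wildtype mice, with HFD arrays above LFD arrays. In Alb::GC mice it differed by -0.43, with overlapping arrays, and it passed in neither genotype. Col14a1 read 0.92 and 1.0, then 1.19 and 1.25, in wildtype liver and 1.17 and 1.08, then 1.1 and 1.0, in Alb::GC liver. Col18a1 read 1.19 and 0.87, then 0.85 and 0.98, in wildtype liver and 0.94 and 1.02, then 0.98 and 1.02, in Alb::GC liver. Fn1 on its representative probe set read 0.95 and 0.83, then 1.04 and 1.12, in wildtype liver and 0.89 and 1.07, then 1.03 and 1.13, in Alb::GC liver. These 3 genes stayed between 0.83 and 1.25 on all 8 arrays.

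For some members another probe set passed with diet where the representative one did not. The second Col6a2 probe set read 1.04 and 1.12 on LFD and 0.22 and 0.35 on HFD in wildtype mice, a difference of -1.78 (adjusted p = 0.0379), and it fell by 1.49 averaged over genotypes (adjusted p = 0.0155), whereas the first differed by -0.52. The second Mmp14 probe set rose by 1.11 in wildtype mice (adjusted p = 0.0433), and the first differed by 0.03. On HFD the second Fn1 probe set read 11.93 and 9.23 in wildtype livers, with 4.03 and 6.62 in those of Alb::GC mice, against 0.52 to 1.19 on LFD, and rose by 3.10 averaged over genotypes (adjusted p = 0.00459), whereas the first differed by 0.20. The second Nid1 probe set rose by 1.73 (adjusted p = 0.0204), and the first differed by 0.29. The 3 Lox probe sets differed by 1.27, -2.34 and -1.63, and the middle of these passed (adjusted p = 0.0172). In wildtype mice the last also passed, at -3.20 (adjusted p = 0.0482). The second probe set of Ccdc80, a matrix protein of mesenchymal cells and fat, rose by 2.91 in wildtype mice (adjusted p = 0.00599) and fell by 2.58 in Alb::GC mice (adjusted p = 0.0106). These probe sets were singled out after their values had been seen.

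On LFD no member differed between Alb::GC and wildtype mice after adjustment in limma, nor did any other gene (0%). At an unadjusted p under 0.05, 8 members were higher and none lower in Alb::GC liver, against 3.80% and 6.27% of all genes. They were Loxl1 at 1.98, Lum at 0.73, Fbln5 at 0.67, Col3a1 at 0.64, Dcn at 0.59, Nid1 at 0.58, Mmp2 at 0.51 and Col4a1 at 0.49. Both Alb::GC arrays were above both wildtype arrays for 17 members and below for none, against 14.4% and 26.4% of all genes, and the members' median was 0.28 against -0.08. Loxl1 read 2.30 and 1.53 in Alb::GC liver against 0.61 and 0.31 in wildtype. Stellate cell and fibroblast markers had mean ratios of 0.814 to 0.909 in wildtype and 1.04 to 1.27 in Alb::GC liver on LFD. Endothelial markers were also higher without overlap, at 0.844 to 0.879 against 1.01 to 1.04, as were cholangiocyte markers, at 0.738 to 0.849 against 0.859 to 1.14. Hepatocyte markers were lower, at 1.02 to 1.13 against 0.894 to 1.01. The part of these markers in the Alb::GC values was not tested.

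On HFD 2 members were lower in Alb::GC than in wildtype liver and none higher, while 0.113% of all genes were lower and 0.0242% higher, 17 genes in all. These were Esm1, at -3.94 ± 0.41, and Lgals1, at -3.66 ± 0.32, each with an adjusted p of 0.044. Without any 1 of the 8 diet arrays neither passed, and the adjusted p rose to as much as 0.225 for Esm1 and 0.224 for Lgals1, both without HFD wildtype replicate 2. At an unadjusted p under 0.05, 7 members were lower and 1, Eln, was higher, against 5.62% and 5.45% of all genes. On actin the 3′ minus 5′ difference was -0.71 to -0.62 on the HFD wildtype arrays and -0.44 to -0.33 on the HFD Alb::GC arrays, without overlap, and its part in this comparison and in the interaction was not tested. The second Ccdc80 probe set was also lower (-3.09, adjusted p = 0.044). In wildtype liver it read 0.33 and 0.35 on LFD and 3.41 and 2.44 on HFD, and in Alb::GC liver 1.62 and 2.51 on LFD but 0.28 and 0.31 on HFD. The first Ccdc80 probe set differed by -0.43 there and did not pass.

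The difference of the diet effect between genotypes was tested as an interaction, Alb::GC minus wildtype. No member passed after adjustment, nor did any other gene (0%), and among the representative probe sets Lgals1 and Esm1 came nearest, at -3.83 ± 0.45 (adjusted p = 0.107) and -3.97 ± 0.57 (adjusted p = 0.136). The second Ccdc80 probe set lay nearer the threshold, at -5.50 ± 0.39 (adjusted p = 0.087). At an unadjusted p under 0.05, 12 representative probe sets lay below 0 and none above, against 4.33% and 6.76% of all genes, a count made after the values had been seen. Besides Lgals1 and Esm1 they were Col15a1, Loxl1, Lum, Col4a1, Col3a1, Fbln5, Timp1, Dcn, Col5a1 and Mmp2, from -3.01 for Col15a1 to -0.66 for Mmp2. Over all 73 probe sets 20 lay below 0 and 2 above, a Col5a1 probe set at 1.01, opposite to the representative one of that gene, and a Lox probe set at 3.13. With any 1 array left out the count was 8 to 13. Since LFD Alb::GC arrays stood above LFD wildtype arrays for many of these genes, the interaction joins that difference with the one on HFD. On second probe sets the interaction was -3.44 for Lgals1 but -0.01 for Col3a1, 0.28 for Col4a1 and -0.05 for Mmp2. Of these second probe sets only that of Lgals1 had an unadjusted limma p under 0.05.

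**Figure D5:**
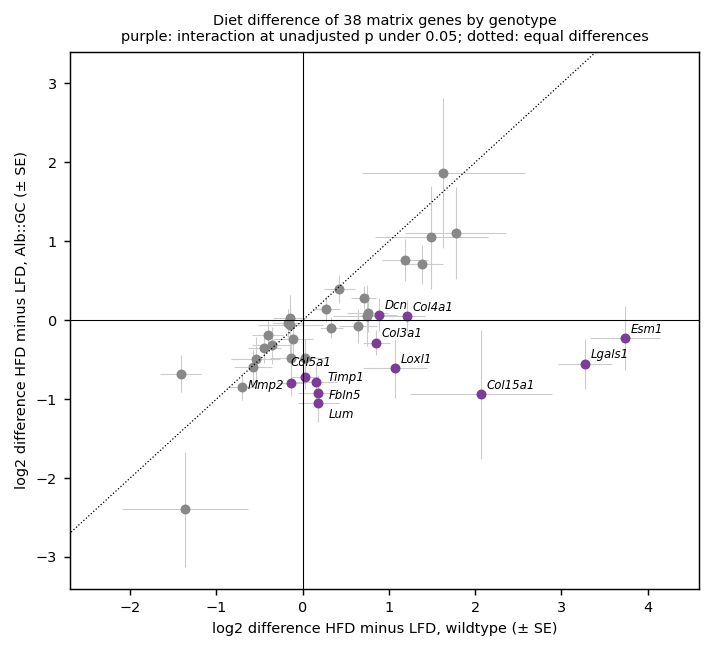
Log2 difference of HFD minus LFD in Alb::GC mice (y axis) against that in wildtype mice (x axis) for 38 matrix genes, with standard errors. Esm1 and Lgals1 lie far to the right, at 3.74 and 3.27 in wildtype mice and -0.23 and -0.55 in Alb::GC mice, and all 12 genes with an unadjusted interaction p under 0.05 lie below the line of equal differences.

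Other matrix lists were counted in the wildtype diet comparison too, where 6.03% of all genes rose and 7.97% fell. Of 19 collagen processing genes 4 rose and 2 fell, with Serpinh1 at 1.28 and Mia3, needed to export collagen from the endoplasmic reticulum, at 1.22. Of 56 other matrix genes 4 rose and 3 fell, with Mmp12 at 2.79 and Mfap2 at 2.03, and of 19 matrix receptors 3 rose and 1 fell, with the hyaluronan receptor Cd44 at 1.98. Of 20 TGF-beta pathway genes 1 rose and 2 fell. Among endothelial markers 2 of 16 rose, Vwf at 2.93 among them. The mean ratios of these markers were 0.844 to 0.879 on LFD and 1.15 to 1.16 on HFD in wildtype liver, and 1.13 to 1.19 in HFD Alb::GC liver. Stellate cell and fibroblast markers rose for 1 of 15, with mean ratios of 0.814 to 0.909 on LFD and 0.994 to 1.06 on HFD in wildtype liver. In HFD Alb::GC liver their mean ratios were 1.08 to 1.16. Macrophage markers rose for 1 of 11, with mean ratios of 0.975 to 1.05 on LFD and 1.21 to 1.27 on HFD in wildtype liver. Of 10 hepatocyte markers none passed, with mean ratios of 1.02 to 1.13 on LFD and 0.942 to 0.987 on HFD in wildtype liver. In HFD Alb::GC liver the mean ratios were 0.86 to 1.41 for macrophage and 0.961 to 1.01 for hepatocyte markers. The part of these markers in the diet results was not tested.

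The members whose representative probe set was not called in any comparison were Col15a1, Lamb1, Lamc1, Col6a1, Col6a2, Col6a3, Fbln5, Lox, Bgn, Thbs1, Mgp, Ccdc80, Mmp14 and Timp2. Of these Col6a2, Lox, Ccdc80 and Mmp14 had another probe set that was called, as given above. Bgn, biglycan, stayed between 0.69 and 1.39 on all 16 arrays, Timp2 between 0.69 and 1.17, and Mmp14 between 0.60 and 1.22. Thbs1, thrombospondin 1, lay between 0.71 and 1.5 and Lamc1 between 0.76 and 1.66. Values spread further for Col15a1, from 0.60 to 5.36, for Lox, from 0.14 to 1.88, and for Mgp, a calcification inhibitor, from 0.11 to 1.85. LFD Alb::GC replicate 1 gave 5.36 for Col15a1 and replicate 2 gave 0.70 in the same group.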

How the data were processed

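Liver RNA from 16 mouse samples was labelled with biotin and hybridised to single-colour Affymetrix arrays, per the labels' protocols. The authors deposited 1 table of linear ratios per probe set, around 1 and rounded to 2 decimals. The sources used here give neither the summary method nor the normalisation nor the denominator of the ratio. Scale and centring were taken from the values (array medians of 0.94 to 1.02). Symbols came from the supplied platform annotation: 20380 probe sets had 1 symbol, 691 several and 1555 none, and 64 control probe sets were left out of the tests.

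Each experiment was fitted alone on log2(ratio + 0.05), with limma 3.58.1 in R 4.3.3 (lmFit, then eBayes with a mean-variance trend), over 22626 probe sets, with Benjamini-Hochberg adjustment and a two-sided threshold of 0.05. Residual degrees of freedom were 6 for AP20187 and 4 for diet. The fit was tested on simulated data. A gene was represented by its probe set with the smallest pooled SD within groups over the 16 arrays. Figures were drawn with matplotlib 3.10.9.

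All measured members are named, with values on every array for those called in at least 1 comparison. From other lists up to 3 called genes a direction with the largest change were named for AP20187 and up to 2 for diet; any other gene or probe set named was chosen after its values were seen. The members and lists were chosen with earlier results of these data known. The promoter stretches, the motifs searched, the counts at an unadjusted p, the probe sets that disagree and the 12 genes of the diet plot were also chosen after values were seen. Shorter printed stretches were tried before the table's full 250 bases were used.

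For LFD wildtype replicate 2, whose source field lists both genotypes, and AP20187 replicate 4, whose source field is 1 letter, the group came from the description. The Atf4 breeding in the design text was not analysed here. No batch is given in the sources used here.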

Additional observations from a re-analysis of the deposited data

Results flagged for a closer look

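In the groups of 4 arrays, 76 sets of member values were screened for an array far from the others, and 4 were found, where chance gives about 5%. Col1a1 read 2.24 on untreated replicate 4, with 1.42 to 1.49 on the others. Timp2 read 1.17 on untreated replicate 2, with 0.98 to 1.01 on the others, and 0.84 on AP20187 replicate 3, with 1.11 to 1.15 on the others. Col5a2 read 0.14 on AP20187 replicate 1, with 0.89 to 1.04 on the others, and did not pass the AP20187 comparison.

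For 5 members, on representative probe sets, both HFD arrays lay above both LFD arrays in wildtype mice and below them in Alb::GC mice. The share of all genes with this pattern was not counted, so this count has nothing to be read against. The interaction was -1.14 for Col3a1 (adjusted p = 0.179), -1.10 for Fbln5 (adjusted p = 0.325), -3.83 for Lgals1 (adjusted p = 0.107), -1.23 for Lum (adjusted p = 0.291) and -0.72 for Nid1 (adjusted p = 0.464). None passed the limma test after adjustment, with 2 arrays a group. The second Col3a1 probe set was lower on HFD in both genotypes, at -0.57 in wildtype and -0.58 in Alb::GC mice. For the second probe sets of Lgals1 and Nid1 the diets overlapped in Alb::GC mice.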

How the results depend on the processing

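Below, counts are of member genes past the limma threshold. With an offset of 0.02, 1 gene was lower in Alb::GC than wildtype mice on HFD. With the lowest 10% of probe sets by mean left out 1 gene was also lower, because Esm1 was among the probe sets left out. Quantile normalisation gave 0 there, 11 lower after AP20187 (Lum, Col14a1 and Col1a2 lost), and 6 higher and 1 lower with diet in wildtype mice (Postn, Dcn and Sparc lost), and median centring also gave 1 lower with diet in wildtype mice. Without a mean-variance trend, 1 gene was lower in Alb::GC on HFD and 1 passed the interaction below 0. Representing each gene by its probe set of highest mean gave 1 higher after AP20187, 0 lower with diet in wildtype mice, 2 higher with diet in Alb::GC mice, and 11 higher and 3 lower averaged over genotypes. Under that rule the direction turned for Fn1 after AP20187 (0.37), for Sparc with diet in wildtype (1.18), in Alb::GC (0.10) and averaged (0.64), for Col5a1 in Alb::GC mice (1.13) and for Col1a1 averaged (1.90), because another probe set of the gene was read. Counting every probe set gave 22 lower after AP20187, 16 higher and 5 lower with diet in wildtype, 2 higher with diet in Alb::GC, 15 higher and 10 lower averaged, and 20 below 0 at an unadjusted interaction p under 0.05. For the rest the cause was not tested.

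With each array left out in turn, AP20187 gave 1 to 2 higher and 13 to 18 lower, and diet gave 0 to 8 higher and 0 to 1 lower in wildtype, 0 to 1 higher and 0 to 1 lower in Alb::GC, and 3 to 9 higher and 2 to 3 lower averaged. On HFD, Alb::GC against wildtype gave 0. In the diet experiment this leaves 1 array in a group, which is assumed to vary like the others. No paired analysis was possible because array titles run in 1 sequence and groups share no replicate numbers.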
